A study of Mus musculus with 3 samples.

Results

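The collagen chains of the mouse soft palate were followed at embryonic stage E14.5 in single-cell RNA sequencing of 2 control libraries and 1 mutant library. A gene was taken as a chain where its symbol had the form Col, a number, a, a number, and where it held at least 20 unique molecular identifiers (UMIs, the molecule tags that are counted once each) over the 3 libraries. This gave 42 genes of 44 with such symbols and of 32285 genes in the count tables. *Col4a3* with 9 UMIs and *Col10a1* with 2 UMIs fell under the minimum. By structure, the 42 chains comprised 11 fibrillar chains, 9 FACIT chains (fibril-associated collagens with interrupted triple helices), 6 beaded filament chains, 5 basement membrane chains, 4 transmembrane chains, 2 network chains, 2 multiplexins, 1 anchoring fibril chain and 2 others.

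All embryos were of the C57BL/6 strain. The mutant was Osr2-Cre;Tgfbr1 fl/fl, named in the labels by the older symbol *Alk5*, in which a Cre driven from the *Osr2* locus, active in palatal mesenchyme, removes the TGF-β type I receptor. The labels call the controls only "control", and the study describes its controls as littermates carrying floxed *Tgfbr1* alleles (fl/fl or fl/+). The labels do not say how many embryos went into a library. With a single mutant library there is no replicate of the mutant and no test, so a difference described here is a difference between these 3 libraries.

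Collagens are built from 3 polypeptide chains wound into a triple helix. Fibrillar collagens I, III and V form the fibrils of connective tissue and bone, II and XI those of cartilage. FACIT collagens such as IX and XII sit on fibril surfaces, collagen IV forms the sheet of basement membranes, and collagen VI forms beaded filaments around cells. In the palate, neural crest-derived mesenchyme makes most of this matrix, and TGF-β is a classical inducer of collagen I and III transcription in fibroblasts.

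The libraries held 2816 barcodes (control 1), 4067 (control 2) and 8690 (mutant), with 22624711, 27814907 and 63505144 UMIs. Cells were assigned to types by gates on marker genes, none of which is a collagen. The palatal mesenchyme gate kept 1278, 2071 and 3896 cells, and inside it the perimysial gate (mesenchyme around the developing muscles) kept 195, 132 and 259, the osteogenic gate 103, 32 and 292, the tendon gate 56, 168 and 292, the midline gate 318, 692 and 705, and 598, 1044 and 2291 cells passed none of these 4. Osteogenic cells thus made up 8.06%, 1.55% and 7.49% of the mesenchyme and midline cells 24.9%, 33.4% and 18.1%. The summed CPM (counts per 1000000 UMIs of a gate in a library) of the 7 perimysial markers inside their own gate was 935, 802 and 521, lowest in the mutant. The osteogenic gate of control 2 was small, and its 9 markers summed to 1031, 2054 and 2539 CPM. The libraries shared 101 barcode sequences, each found in 2 of them, and leaving those cells out ended no call given here. *Tgfbr1* itself stood at 55.7, 63.1 and 49.95 CPM in the mesenchyme and at 59.6, 61.7 and 63.1 CPM in the perimysial gate. The tags come from the 3′ end of the transcript, so these values are no check of the deletion.

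Most collagen UMIs came from a handful of fibrillar chains in mesenchyme. Collagen made up 0.554% (95% Clopper-Pearson interval 0.549 to 0.558), 0.615% (0.611 to 0.620) and 0.618% (0.615 to 0.621) of all mesenchymal UMIs in control 1, control 2 and the mutant, and the mutant exceeded control 2 by less than the controls differed from each other. *Col1a1*, *Col1a2* and *Col3a1* together gave 69.1%, 63.7% and 65.3% of these collagen UMIs. The 3 stood first in the palatal mesenchyme and in each of its 5 divisions, in every library. UMIs count 3′ ends and are not divided by transcript length, so levels of different genes are compared here as molecules tagged.

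Other chains peaked outside the fibroblasts. *Col17a1*, a transmembrane collagen of the hemidesmosome, stood at 46.3, 49.1 and 31.4 CPM in epithelial cells, and *Col7a1*, the anchoring fibril chain, at 23.6, 28.3 and 23.8 CPM, each highest there in all 3 libraries. *Col4a1*, *Col4a2* and *Col18a1*, chains of basement membranes, were the 3 most abundant chains of endothelial cells. There *Col4a1* stood at 401, 382 and 343 CPM, *Col4a2* at 343, 370 and 421 CPM and *Col18a1* at 364, 261 and 317 CPM. *Col19a1* was highest in myogenic cells in each library, at 5.18, 8.68 and 12.9 CPM, which rest on 7, 8 and 8 UMIs. Within the mesenchyme, *Col8a1*, a network-forming chain, was highest in the midline gate in every library, *Col6a1* and *Col8a2* in the perimysial gate and *Col5a2* in the osteogenic gate. The cartilage set stood out in the chondrocyte gate of the mutant, which held 148 cells against 3 in each control, with *Col2a1* at 2233, *Col11a1* at 1069 and *Col9a3* at 774 CPM.

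**Figure D1:**
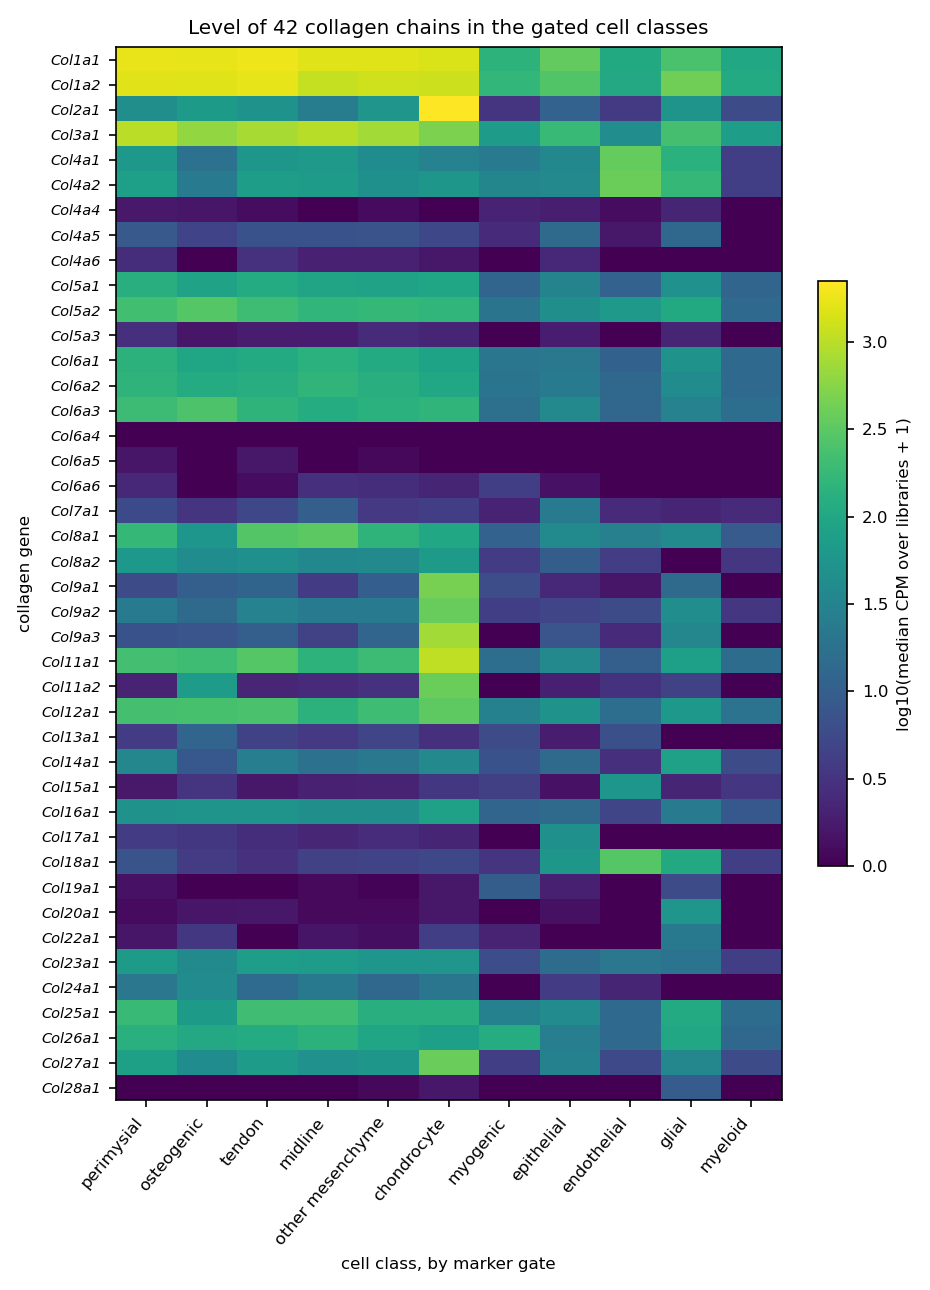
Levels of the 42 chains (rows) in 11 cell classes (columns), as log10 of the median CPM over the libraries with at least 20 cells of that class, plus 1. Fibrillar chains are high across the mesenchymal classes, *Col4a1*, *Col4a2* and *Col18a1* in endothelial cells, *Col17a1* and *Col7a1* in epithelial cells.

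Myeloid cells were taken as a floor under these levels. Whether their collagen counts came from free RNA, from doublets or from the myeloid cells themselves was not tested. In myeloid cells *Col1a1* read 99.4, 111 and 95.3 CPM, *Col12a1* 9.70, 17.7 and 23.5 CPM, *Col2a1* 2.43, 4.83 and 11.8 CPM and *Col4a1* 2.43, 3.22 and 8.23 CPM. All were far below the mesenchymal levels given next. The floor was not the same in each library. By the criterion set out below, *Col1a2* (70.3, 111 and 152 CPM) was higher and *Col26a1* (12.1, 17.7 and 7.06 CPM) lower in mutant myeloid cells. There 12 chains were measured, and of all 6994 genes 5.46% were higher and 12.2% lower.

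Between the genotypes, a gene was counted as higher or lower in the mutant of a gate where the mutant lay beyond both controls, by at least 1.5-fold against their mean log2 level and by more than the controls differed. To enter, a gene needed 20 UMIs in the gate and a level of 10 CPM, reached by the mutant or by each control. In the palatal mesenchyme 25 of the 42 chains met this minimum, 4 were higher (*Col2a1*, *Col9a3*, *Col11a2*, *Col12a1*) and 1 was lower (*Col4a1*), while 6 of the 25 lay between the controls. Of all 8553 genes, 2.14% were higher and 4.15% lower by the same criterion. The median log2 difference was 0.17 over the 25 chains and -0.05 over all genes, and the median gap between the controls was 0.28 and 0.27. *Col9a3* and *Col11a2* reached the minimum through the mutant alone, so they could enter only where the mutant was high. With the minimum set on the mean of the 3 libraries instead, 2 of 23 chains were higher (*Col2a1* and *Col12a1*) and 1 lower, beside 1.63% and 4.01% of 8486 genes.

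*Col12a1*, a FACIT chain on collagen I fibrils, read 148 CPM (exact 95% Poisson bounds 142 and 156) in control 1, 193 CPM (185 to 200) in control 2 and 308 CPM (301 to 314) in the mutant. Mutant and controls were clear of each other, the mutant 1.82-fold above their mean (log2 0.86, control gap 0.38). With each cell thinned to 3500 UMIs, 33.3%, 41.3% and 54.1% of mesenchymal cells held a *Col12a1* UMI (58.1%, 53.3% and 67.4% unthinned), against 9.68%, 2.82% and 6.72% of thinned myeloid cells. The call was kept under each of the 13 alternatives run for it.

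*Col2a1*, the fibrillar chain of cartilage, stood at 40.5 CPM (37.0 to 44.3), 48.0 CPM (44.4 to 51.8) and 80.0 CPM (76.9 to 83.2), 1.81-fold higher in the mutant. A *Col2a1* UMI was found in 9.38%, 11.1% and 18.3% of thinned mesenchymal cells (18.7%, 17.7% and 31.0% unthinned) and in 0, 1.41% and 2.52% of thinned myeloid cells. *Col9a3*, a chain of the cartilage FACIT collagen IX, stood at 7.17, 5.37 and 11.4 CPM. *Col11a2*, a chain of cartilage and bone fibrils, stood at 1.0, 4.79 and 11.4 CPM, so that the controls differed nearly as much as the mutant from them (log2 2.38 against a gap of 2.26). In control 2 and the mutant most mesenchymal *Col11a2* UMIs lay in the osteogenic gate (39 of 66 and 244 of 352). In control 1 that gate held 3 of 12. There *Col11a2* read 2.20, 99.0 and 70.0 CPM.

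Markers of chondrocytes were, like these 3 chains, highest in the mutant. The chondrocyte gate, which lies outside the mesenchyme gate, held 0.142%, 0.0785% and 1.82% of the kept cells. The 9 chondrocyte markers summed to 94.5, 125 and 135 CPM in the mesenchyme, with 1, 2 and 0 of them at 0. Without cells that held 2 or more chondrocyte markers, *Col2a1* read 29.6, 38.6 and 63.1 CPM, *Col11a2* 0.810, 3.25 and 12.6 CPM and *Col12a1* 145, 187 and 275 CPM. *Col2a1*, *Col11a2* and *Col12a1* still met the criterion, while *Col9a3*, at 5.31, 4.12 and 9.29 CPM, fell under the level minimum. With the 5 divisions of the mesenchyme at equal weights in every library only *Col12a1* stayed higher and *Col4a1* lower. Leaving out control 2 gave 8 higher chains, which added *Col11a1*, *Col24a1*, *Col25a1* and *Col27a1*, and leaving out control 1 gave 2 lower chains, which added *Col8a1*.

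**Figure D2:**
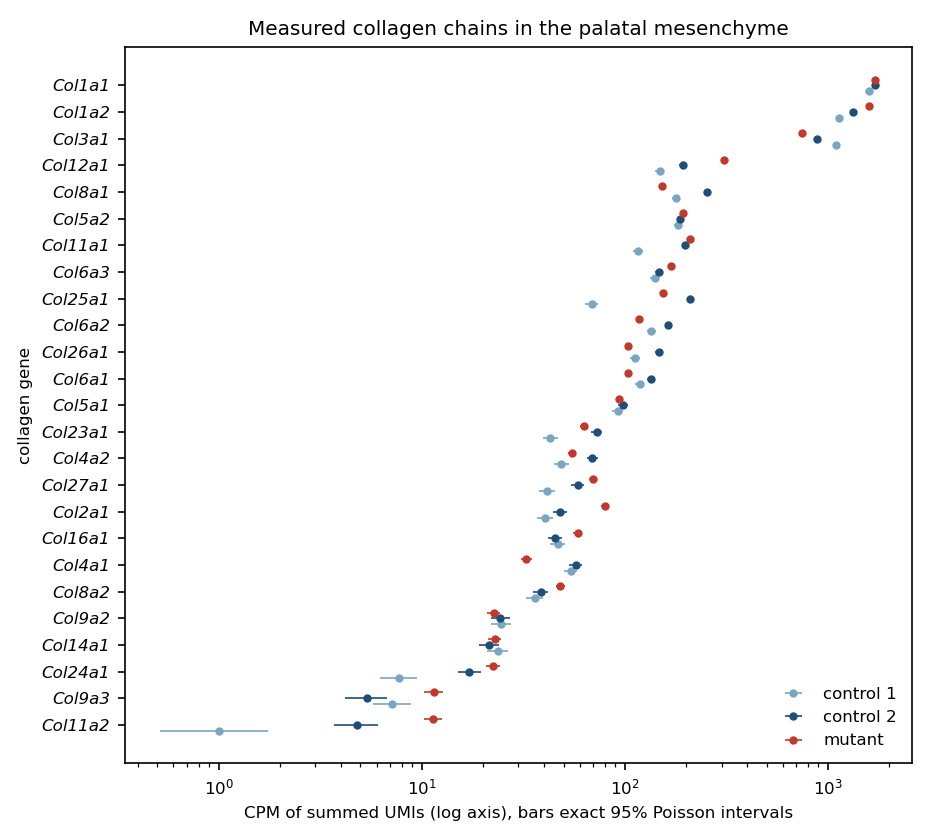
CPM (log axis) of the 25 chains measured in the palatal mesenchyme, one point per library with its 95% Poisson interval. The mutant point lies right of both controls for *Col12a1* (308 against 148 and 193 CPM) and *Col2a1*, and left of both for *Col4a1* (32.7 against 54.1 and 57.3 CPM).

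The chain that was lower was *Col4a1*, which pairs with *Col4a2* in the main collagen IV of basement membranes. *Col4a1* stood at 54.1 CPM (50.04 to 58.5), 57.3 CPM (53.4 to 61.4) and 32.7 CPM (30.7 to 34.8), 1.70-fold lower in the mutant (log2 -0.77, control gap 0.08). *Col4a2* stood at 48.8 CPM (44.9 to 52.9), 69.4 CPM (65.1 to 73.9) and 55.0 CPM (52.5 to 57.7), with the mutant between the controls. Thinned mesenchymal cells held a *Col4a1* UMI in 14.7%, 18.5% and 10.4% of cases (33.5%, 28.6% and 20.2% unthinned), and a *Col4a2* UMI in 14.47%, 19.9% and 16.1%, again with the mutant between the controls for *Col4a2*. Thinned myeloid cells held a *Col4a1* UMI in 0 of 31, 0 of 71 and 2.52% of 119 cells. The 7 endothelial markers, of cells rich in collagen IV, summed to 16.0, 12.2 and 7.36 CPM in the mesenchyme, lowest in the mutant as *Col4a1* was. Other lists fell in the same order, with sums of 143, 31.1 and 9.60 CPM (myogenic), 64.5, 21.3 and 5.35 CPM (myeloid), 94.8, 59.0 and 41.7 CPM (epithelial) and 3232, 895 and 745 CPM (erythroid). The mural, glial and neuronal sums were highest in the mutant. The neuronal gate itself held 12, 11 and 301 cells. The fall was thus not particular to endothelial markers, and the part of these lists in the result was not tested.

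The 2 genes lie head to head on chromosome 8, *Col4a1* on the minus strand at chr8:11198423-11312826 and *Col4a2* on the plus strand at chr8:11312805-11449287 (GRCm38). Their first exons overlap by 22 bases, shown because a difference in 1 gene of the pair is the finding. The stretch at chr8:11312805-11312826, from RefSeq on GRCm38.p6, reads 5′ to 3′ on each gene's own strand as follows.
Col4a1: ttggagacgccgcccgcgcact
Col4a2: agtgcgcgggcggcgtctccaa
Each line is the reverse complement of the other. The overlap lies at the 5′ ends, far from the 3′ ends that the tags count.

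The remaining fibrillar and filament chains of the mesenchyme differed less. *Col1a1* stood at 1603, 1710 and 1701 CPM and *Col1a2*, its partner in collagen I, at 1130, 1329 and 1588 CPM. *Col3a1* stood at 1094, 883 and 746 CPM, lowest in the mutant but 1.32-fold under the control mean (log2 -0.40, gap 0.31). For collagen V, *Col5a1* read 92.3, 98.2 and 93.9 CPM and *Col5a2* 183, 187 and 195 CPM.
None of these 5 met the criterion. The beaded filament chains *Col6a1* (118, 135 and 104 CPM) and *Col6a2* (135, 164 and 117 CPM) were lowest in the mutant, and *Col6a3* (140, 148 and 170 CPM) was highest there. Of the network chains, *Col8a1* stood at 179, 254 and 152 CPM and *Col8a2* at 36.1, 38.6 and 48.1 CPM. *Col9a1* (10.5, 3.48 and 8.79 CPM), *Col9a2* (24.6, 24.4 and 22.7 CPM) and *Col11a1* (116, 199 and 210 CPM) did not meet it either. *Col25a1* differed most between the controls among the chains over 50 CPM, at 68.7 and 211 CPM, and the mutant lay between them at 154 CPM. Summed by group, the fibrillar chains gave 4311, 4536 and 4718 CPM, the FACIT chains 262, 294 and 435 CPM and the basement membrane chains 109, 134 and 96.4 CPM.

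The scale bears on the split between higher and lower. With TMM factors (edgeR's trimmed mean scaling) in place of total UMIs, the median of all genes shifted by 0.13 on the log2 scale in the mesenchyme, and the share of called genes that were higher went from 34.0% to 56.8%. The 4 higher chains and *Col4a1* kept their calls, and the counts were 6 higher and 1 lower.

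Perimysial cells, the mesenchyme next to the muscle precursors, differed between the genotypes in 3 chains. There 24 chains met the minimum, 3 were higher (*Col2a1*, *Col12a1*, *Col27a1*) and 0 lower, against 4.84% and 5.88% of 8948 genes, and 4 lay between the controls. The median log2 difference was 0.16 over the 24 chains and 0.00 over all genes. Collagen made up 0.641%, 0.684% and 0.664% of perimysial UMIs, with the mutant between the controls.

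*Col12a1* stood at 173 CPM (156 to 191), 231 CPM (209 to 255) and 381 CPM (362 to 400) in the perimysial gate, 1.90-fold higher in the mutant. *Col2a1* stood at 23.6 CPM (17.6 to 31.0), 44.1 CPM (34.7 to 55.3) and 95.8 CPM (86.7 to 106), 2.97-fold higher. *Col27a1*, a fibrillar chain of cartilage, stood at 52.2 CPM (43.0 to 62.8), 79.3 CPM (66.5 to 93.9) and 101 CPM (91.6 to 111), so mutant and control 2 overlapped within counting error. The chondrocyte markers summed to 74.4, 123 and 157 CPM in this gate, in the order of the 3 chains, with 5, 4 and 1 of the 9 at 0. Without cells of 2 or more chondrocyte markers, which left 189, 118 and 180 cells, *Col2a1* read 14.7, 28.4 and 71.0 CPM, *Col12a1* 168, 223 and 308 CPM and *Col27a1* 50.4, 71.8 and 91.1 CPM, and all 3 still met the criterion.

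Marker sums for tendon and perimysial cells differed between the libraries of this gate, in which a cell that also passed the tendon gate was kept. The 5 tendon markers summed to 89.7, 120 and 192 CPM, in the order of *Col12a1*, while the sums of the gate's own 7 markers were in the reverse order, as given above. Their part in the result was not tested.

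The leading chains of the gate stayed short of the criterion. *Col1a1* stood at 1792, 1746 and 1530 CPM, *Col1a2* at 1343, 1570 and 1641 CPM and *Col3a1* at 1377, 993 and 859 CPM. In the mutant *Col1a1* and *Col3a1* lay below both controls and *Col1a2* above both. *Col5a2* (216, 215 and 212 CPM) and *Col6a3* (216, 199 and 199 CPM) hardly differed. *Col4a1* read 66.6, 60.0 and 43.4 CPM, 1.46-fold under the control mean and short of the criterion, and *Col4a2* 53.2, 87.0 and 77.5 CPM.

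Counts in this gate moved with the setting. The number of higher chains was 3 without control 1 and 8 without control 2, and 6 with TMM factors, which also moved the share of called genes that were higher from 45.2% to 62.3%. *Col27a1* lost its call without control 1 (log2 0.35), for means over cells (0.49) and with thinned cells (0.15), whereas *Col12a1* and *Col2a1* kept theirs under each of 12 alternatives.

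Osteogenic cells differed in the major chains themselves. Of 26 measured chains 5 were higher (*Col1a1*, *Col1a2*, *Col5a1*, *Col14a1*, *Col22a1*) and 1 was lower (*Col3a1*), against 5.09% and 8.15% of 8062 genes, and 14 lay between the controls. *Col14a1* and *Col22a1* reached the level minimum through the mutant alone. On the mean of the 3 libraries the counts were 3 higher and 1 lower of 25 chains, beside 3.81% and 8.02% of 7879 genes. Collagen made up 0.467%, 0.644% and 0.723% of the UMIs. The median gap between the controls was 0.93 over the chains and 0.43 over all genes, and control 2 held 32 cells.

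*Col1a1*, the main chain of bone matrix, stood at 1507 CPM (1443 to 1574), 1673 CPM (1548 to 1806) and 2558 CPM (2505 to 2612), 1.61-fold higher in the mutant. *Col1a2* stood at 926 CPM (876 to 979), 1526 CPM (1406 to 1653) and 2171 CPM (2122 to 2220), 1.83-fold higher. *Col5a1*, which helps to start collagen I fibrils, stood at 56.6 CPM (44.7 to 70.7), 83.8 CPM (57.7 to 118) and 130 CPM (119 to 143), whereas its partner *Col5a2* stood at 259, 366 and 290 CPM. In contrast, *Col3a1*, a chain of soft connective tissue, stood at 893 CPM (843 to 945), 637 CPM (561 to 721) and 420 CPM (399 to 443), 1.79-fold lower. Collagen I was thus highest and collagen III lowest in the mutant, and *Col3a1* per *Col1a1* was 0.592, 0.381 and 0.164.

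The other 2 calls rest on few molecules. *Col22a1*, a FACIT chain of tissue junctions, had 1 UMI in each control and 52 in the mutant, or 0.735 CPM (0.0186 to 4.09), 2.54 CPM (0.0643 to 14.1) and 14.9 CPM (11.1 to 19.6). With thinned cells it lost its call (log2 0.09). *Col14a1* had 10, 0 and 40 UMIs, and lost its call under 5 of 12 alternatives.

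The gate's own 9 markers moved with these values. They summed to 1031, 2054 and 2539 CPM, in the order of *Col1a1*, *Col1a2* and *Col5a1*, and in the reverse order of *Col3a1*, with 2, 3 and 1 of them at 0. Their part in the result was not tested. Without control 1, 7 chains were lower (among them *Col2a1* and *Col26a1*) and *Col1a2* lost its call (log2 0.51), and without control 2, 13 chains were higher. *Col3a1* lost its call with a stricter gate (log2 -0.57). TMM factors shifted the median of all genes by 0.15 and the share of called genes that were higher from 38.4% to 68.3%, with 5 and 1 chains as before.

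Stretches of the promoter windows of *Col3a1* and *Col1a2* are shown because the 2 genes differed in opposite directions in this gate. The motifs searched, on both strands from 250 bases before to 50 after the start, were CAGAC (the core of Smad binding elements), the CCAAT box, the TATA motif written TATAAA, and TGANTCA for AP-1. Windows were held by 34 of the 42 chains. The 8 without one were *Col1a1*, *Col2a1*, *Col5a2*, *Col9a3*, *Col12a1*, *Col14a1*, *Col22a1* and *Col26a1*, so the counts leave out several chains called higher. CAGAC was in 20 of the chains' 37 windows and in 49.6% of all 32851 windows. CCAAT was in 13 (37.4% of all), TATAAA in 4 (13.6%) and TGANTCA in 1, that of *Col6a1* (7.81%). The 2 stretches, 5′ to 3′ on the plus strand with matches in capitals (on the other strand CAGAC appears as GTCTG), lie at chr1:45311288-45311537 and chr6:4505368-4505492 of GRCm38.p6.
Col3a1: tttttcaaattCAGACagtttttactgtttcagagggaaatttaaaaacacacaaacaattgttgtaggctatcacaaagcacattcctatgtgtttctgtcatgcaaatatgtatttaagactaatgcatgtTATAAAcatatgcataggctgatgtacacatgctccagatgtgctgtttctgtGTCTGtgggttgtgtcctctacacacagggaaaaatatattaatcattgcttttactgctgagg
Col1a2: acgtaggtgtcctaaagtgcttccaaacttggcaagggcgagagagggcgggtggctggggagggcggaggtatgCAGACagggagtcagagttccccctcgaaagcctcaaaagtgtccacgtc
The *Col3a1* stretch is the part of its window before the RefSeq start. The *Col1a2* stretch is the first 125 bases of its window and ends ahead of the longest *Col1a2* transcript in GENCODE. The GENCODE span of the gene opens at chr6:4504814, so the *Col1a2* stretch lies inside the annotated gene. The *Col3a1* stretch held CAGAC at 2 places and TATAAA at 1, and the *Col1a2* stretch held CAGAC at 1. The whole *Col1a2* window also held CCAAT at 2 places, in the part not shown. A match is a run of letters, and binding was not measured.

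*Col12a1* and *Col4a1* were then followed through the other mesenchymal divisions. In the tendon gate 4 of 24 measured chains were higher and 2 lower, against 6.52% and 6.73% of 8824 genes. *Col12a1* stood there at 162, 242 and 397 CPM, *Col2a1* at 49.9, 48.9 and 111 CPM, *Col8a2* at 27.5, 46.3 and 60.5 CPM and *Col24a1* at 13.8, 8.6 and 23.4 CPM, all highest in the mutant. *Col24a1* reached the level minimum through the mutant alone. *Col4a1* at 65.3, 58.2 and 31.8 CPM and *Col8a1* at 297, 282 and 179 CPM were lowest there. *Col8a2* lost its call without control 1 (log2 0.39), *Col2a1* with a stricter gate (0.53) and *Col12a1* with thinned cells (0.89).

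Midline cells had 2 chains in each direction. Of 23 measured chains, *Col12a1* (115, 141 and 244 CPM) and *Col2a1* (24.4, 25 and 61.2 CPM) were higher, and *Col4a1* (80.1, 64.6 and 39.7 CPM) and *Col8a1* (327, 318 and 202 CPM) lower, against 2.25% and 5.79% of 8547 genes. *Col8a1* lost its call with TMM factors (log2 -0.57) and with thinned cells (-0.55). The chondrocyte markers summed to 75.8, 95.1 and 105 CPM in this gate and the endothelial markers to 19.1, 11.0 and 6.12 CPM. The myogenic markers fell in the same order (148, 31.3 and 7.05 CPM), while the glial and neuronal sums were highest in the mutant.

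Mesenchymal cells outside the 4 sub-gates had 24 measured chains. *Col12a1* was higher at 149, 202 and 289 CPM and *Col4a1* lower at 41.1, 52.2 and 28.7 CPM, against 1.42% and 6.64% of 8378 genes. *Col12a1* lost its call without control 1 (log2 0.52) and *Col4a1* without control 2 (log2 -0.52). With TMM factors the counts were 3 and 0.

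**Figure D3:**
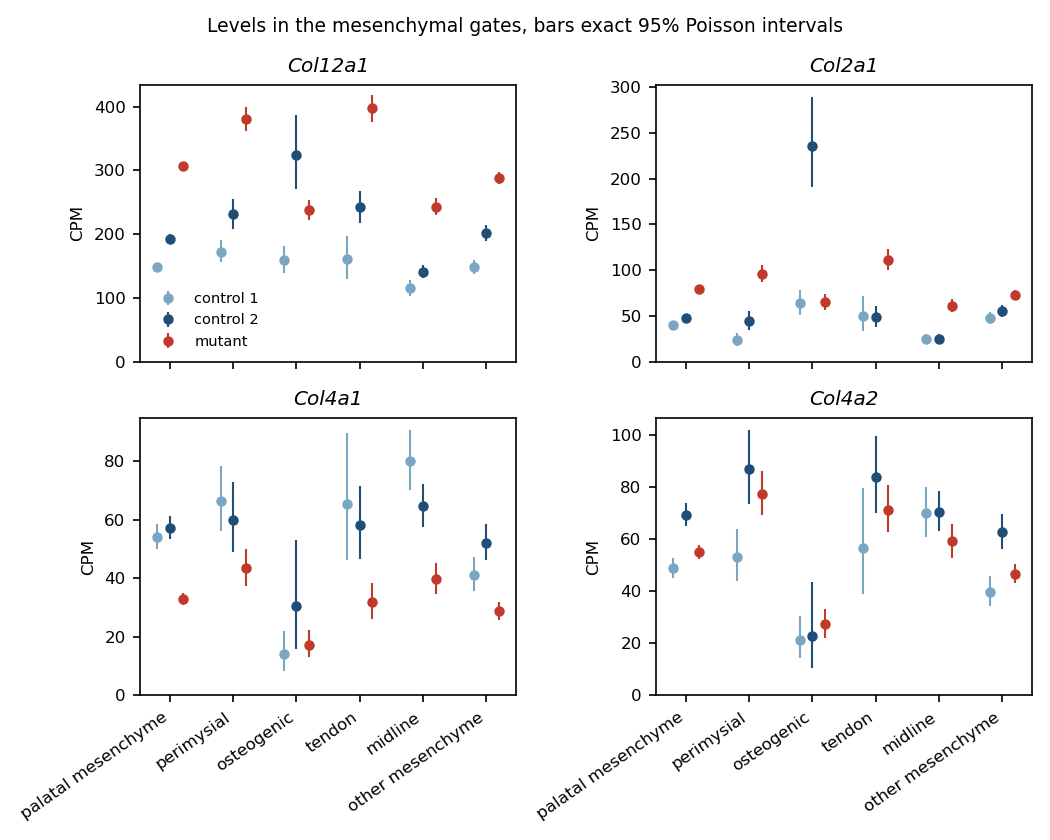
CPM of *Col12a1*, *Col2a1*, *Col4a1* and *Col4a2* in the palatal mesenchyme and its 5 divisions, one point per library with its 95% Poisson interval. *Col12a1* is highest in the mutant in 5 of the 6 groups of cells, except the osteogenic gate (159, 325 and 238 CPM), and *Col4a1* is lowest in the mutant in the same 5.

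Cells outside the mesenchyme were read in the same way. Myogenic cells had 17 measured chains, of which *Col19a1* was higher and *Col4a1* (41.5, 23.9 and 12.9 CPM), *Col5a2* (25.9, 18.4 and 9.66 CPM) and *Col6a1* (36.3, 19.5 and 11.3 CPM) lower, against 6.07% and 14.8% of 7035 genes. The last 3 rest on 8, 6 and 7 UMIs in the mutant. None of the 3 kept its call with a stricter gate. Myeloid cells read 7.28, 12.9 and 12.9 CPM for *Col5a2* and 14.6, 12.9 and 12.9 CPM for *Col6a1*. The mutant values of both thus lay under the myeloid floor and are not read as a level of myogenic cells. *Col19a1*, at 0 in the myeloid cells of each library, reached the minimum through the mutant alone. It kept its call under 9 of 12 alternatives and lost it without control 1 (log2 0.57), with a stricter gate (1.42) and with thinned cells (1.46).

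Epithelial cells had 24 measured chains. *Col17a1*, given above, was lower and *Col2a1* (8.27, 10.4 and 13.9 CPM) higher, against 10.5% lower and 1.78% higher of 8518 genes. Both calls sat at the edge of 1.5-fold, and *Col17a1* lost its call with TMM factors (log2 -0.46) and without control 2 (log2 -0.56), *Col2a1* without control 1 (log2 0.42). Of 12 alternatives, *Col17a1* kept its call under 7 (weakest log2 -0.21) and *Col2a1* under 6. *Col2a1* reached the minimum through the mutant alone, and was in the same order in myeloid cells (2.43, 4.83 and 11.8 CPM), so its epithelial values are not read as expression there.

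Endothelial cells had 17 measured chains, 0 higher and 2 lower, against 5.58% and 10.6% of 8167 genes. *Col15a1*, a multiplexin of vascular basement membranes, stood at 216 CPM (155 to 293), 95.2 CPM (75.0 to 119) and 17.1 CPM (11.4 to 24.5), with no overlap of the intervals. This was 8.41-fold lower in the mutant (log2 -3.07, control gap 1.18), and the call was kept under all 12 alternatives. The control 1 value came from 15 cells, and the gate held 79 and 215 cells in the other libraries. *Col6a1* stood at 15.8, 12.5 and 7.65 CPM on 3, 10 and 13 UMIs, and lost its call without the highest Scrublet scores. Myeloid cells read 14.6, 12.9 and 12.9 CPM for *Col6a1*, above the endothelial values in control 2 and the mutant, so no endothelial level is read from it. The 7 endothelial markers summed to 2083, 2768 and 3119 CPM, highest where *Col15a1* was lowest, and which kinds of vessel the cells came from was not tested.

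Over the 8 separate gates (the 5 divisions of the mesenchyme and the 3 other types), 11 of the 34 chains measured in any were higher in at least 1 and 7 lower in at least 1. Among all 10786 genes measured in any, 18.4% were higher in at least 1 gate and 32.1% lower. Of the 11 higher chains, *Col14a1*, *Col19a1*, *Col22a1* and *Col24a1* were each called in 1 gate, which they entered through the mutant alone. Of these only *Col24a1* kept its call with the minimum on the mean of the 3 libraries. Of the 7 lower chains, *Col5a2* was called only in myogenic cells and *Col6a1* only there and in endothelial cells. Their mutant values lay under the myeloid floor. No excess of chains is read from these counts. No chain was called both ways, 24 were called in none, and 8 of those were measured in none. *Col12a1* was higher in 4 gates, *Col2a1* in 4 of the 6 that measured it, and *Col4a1* was lower in 4. The *Col2a1* gates include the epithelial gate, where its values are not read as expression. The *Col4a1* gates include the myogenic gate, where its call rests on 8 mutant UMIs and was lost with a stricter gate. In the other mesenchyme *Col4a1* kept its call under 9 of 12 alternatives. *Col4a2* was called in none. With TMM factors the share of called genes that were higher went from 27.9% to 50.5% in the midline gate, from 17.6% to 51.7% in the other mesenchyme, from 29.1% to 41.6% in myogenic, 14.55% to 39.3% in epithelial and 34.6% to 54.2% in endothelial cells.

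Chains that share a protein need not be tagged in equal numbers, and ratios within a library do not depend on scaling. *Col1a1* per *Col1a2* was 1.42 (1.39 to 1.45), 1.29 (1.26 to 1.31) and 1.07 (1.06 to 1.08) in the mesenchyme. Collagen I protein usually holds the 2 chains in a fixed proportion, which UMIs do not measure. The mutant ratio lay below both controls in 6 of the 8 separate gates, among them the epithelial gate with 1.47, 1.41 and 1.14, where *Col1a1* itself was 143, 383 and 351 CPM. The palatal mesenchyme markers summed to 75.6, 156 and 150 CPM in the epithelial gate, in the order of its *Col1a1*. In myeloid cells the same ratio was 1.41, 1.0 and 0.628. Whether the epithelial ratio comes from epithelial cells was not tested. The endothelial gate was also among the 6. There *Col1a1* read 84.4, 115 and 102 CPM, close to the myeloid 99.4, 111 and 95.3 CPM, so no endothelial ratio is read. Its control 1 held 16 *Col1a1* and 7 *Col1a2* UMIs. In the osteogenic gate the ratio was 1.63, 1.10 and 1.18, with the mutant between the controls.

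*Col4a1* per *Col4a2* was 1.11 (0.991 to 1.24), 0.825 (0.750 to 0.908) and 0.595 (0.549 to 0.643) in the mesenchyme, and the mutant lay below both controls in 8 of 8 gates. Endothelial cells, with the highest levels of both chains, gave 1.17 (0.829 to 1.65), 1.03 (0.878 to 1.22) and 0.815 (0.730 to 0.911), and epithelial cells gave 1.13, 1.03 and 0.70. In both types the interval of the mutant overlapped that of a control, in the whole mesenchyme it did not. Among the separate gates it was clear of both controls only in the other mesenchyme (0.537 to 0.701 against 0.839 to 1.27 and 0.708 to 0.977). The mutant interval overlapped that of a control in the perimysial, osteogenic, tendon, midline and myogenic gates. The osteogenic ratios were 0.655, 1.33 and 0.632, and their difference turned sign with thinned cells. A difference between the libraries that is not the genotype cannot be told apart from the deletion with a single mutant library.

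**Figure D4:**
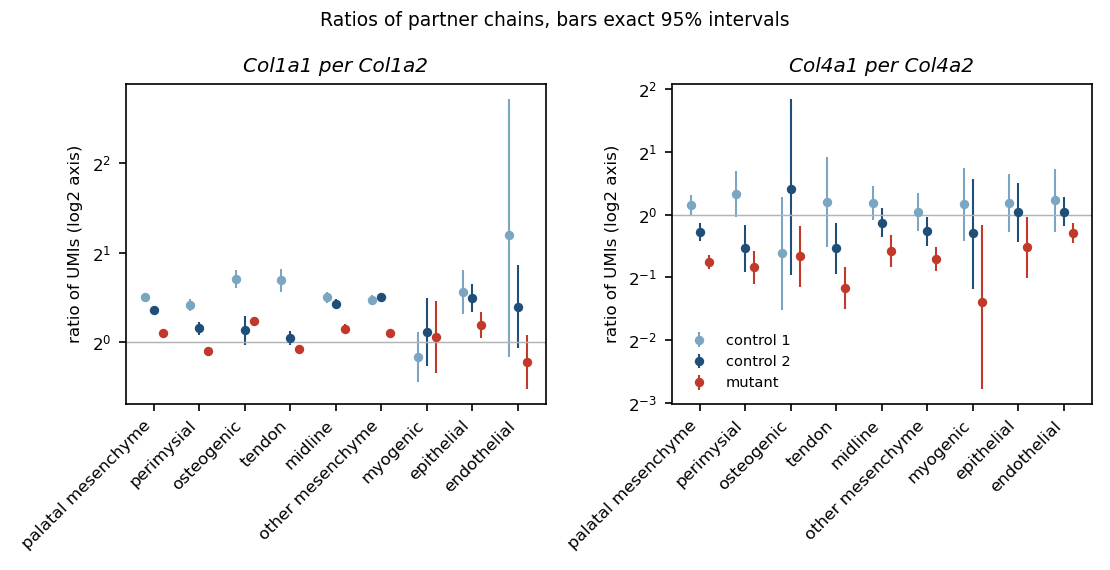
UMIs of *Col1a1* per UMI of *Col1a2* and of *Col4a1* per UMI of *Col4a2* (log2 axis) in 9 groups of cells, one point per library with its 95% interval for counting error. The mutant ratio of *Col4a1* per *Col4a2* lies below both controls in every group, 0.595 against 1.11 and 0.825 in the palatal mesenchyme.

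Of 12 such ratios, *Col6a3* per *Col6a1* lay above both controls in 5 of 8 gates (1.19, 1.09 and 1.63 in the mesenchyme) and *Col8a1* per *Col8a2* below both in 5 (4.97, 6.57 and 3.17). *Col5a1* per *Col5a2* and *Col5a1* per *Col1a1* each lay below both controls in 5 gates and above both in 2. *Col9a1* per *Col9a2* lay above both in 4 of 7. No share over other gene pairs was set beside these counts. *Col5a1* per *Col5a2* was 0.505, 0.524 and 0.483 in the mesenchyme but 0.218 (0.168 to 0.280), 0.229 (0.152 to 0.336) and 0.450 (0.402 to 0.503) in the osteogenic gate. *Col9a1* per *Col9a2* was 0.427, 0.142 and 0.387, and *Col11a1* per *Col11a2* 116, 41.6 and 18.4, so that for the last the controls differed from each other more than control 2 and the mutant did.

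Genes that modify, fold, export, process and crosslink collagen were read beside the chains, from a list of 44 that also includes 7 collagen receptors. In the mesenchyme 32 were measured, 1 was higher and 1 lower, with a median log2 difference of 0.10, beside 2.14% and 4.15% of all genes and their median of -0.05. *P4ha3*, a prolyl hydroxylase subunit, stood at 10.0, 11.5 and 23.3 CPM, 2 control values close together and the mutant above. *Lox*, the enzyme that crosslinks collagen fibrils, stood at 159 CPM (152 to 166), 154 CPM (147 to 161) and 89.0 CPM (85.7 to 92.4), log2 -0.81 with a control gap of 0.04.

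The perimysial gate, whose cells are part of the palatal mesenchyme, gave the same 2 genes and *Loxl3*, a relative of *Lox*. *P4ha3* stood at 6.93, 11.2 and 25.8 CPM, *Lox* at 180, 178 and 105 CPM and *Loxl3* at 10.2, 13.5 and 6.16 CPM, 1 of 33 measured genes higher and 2 lower, beside 4.84% and 5.88% of all genes. *Loxl3* kept its call under 8 of 12 alternatives, and lost it among others with a stricter gate, where its log2 difference was 0.04.

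In osteogenic cells 5 of 35 were higher and 1 lower, and the median log2 difference was 0.38, beside 5.09% and 8.15% of all genes and their median of -0.03. *Sparc*, a collagen-binding protein of bone, stood at 487, 726 and 1159 CPM, highest in the mutant. *P4ha2* (46.3, 68.6 and 91.6 CPM) and *Plod1* (21.3, 15.2 and 33.0 CPM), which hydroxylate proline and lysine, were also higher. *Adamts2*, which removes a procollagen end, read 14.0, 17.8 and 25.3 CPM, and the collagen receptors *Ddr2* and *Ddr1* read 62.5, 78.7 and 112 CPM and 10.3, 15.2 and 5.45 CPM. In control 2 this gate held 393848 UMIs in 32 cells, so its values for *Plod1*, *Adamts2* and *Ddr1* rest on few molecules. *P4ha2*, *Adamts2* and *Ddr2* lost their calls without control 1 (log2 0.42, 0.51 and 0.51), and *Ddr1* its call with a stricter gate (0.30). Of 12 alternatives, *Adamts2* kept its call under 7 (lowest log2 0.16), *Ddr1* under 9, *P4ha2* under 10 and *Ddr2* under 11. Outside the mesenchyme, myogenic cells had 2 of 23 measured genes of the list higher and 3 lower, beside 6.07% and 14.8% of all genes. Of the 3 crosslinking genes measured there, 2 were lower. Epithelial cells had 1 of 28 higher and 1 lower, beside 1.78% and 10.5%. Endothelial cells had 1 of 26 higher and 2 lower, beside 5.58% and 10.6%.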

How the data were processed

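Soft palates of E14.5 embryos were profiled by 10x Genomics 3′ v2 libraries of single cells. The authors deposited raw UMI counts per gene and barcode, 1 matrix per library, without normalization. The labels and file headers give Cell Ranger 4.0.0, the submitters' processing notes Cell Ranger 3.1.0 with mm10. Groups and replicate numbers were taken from the labels.

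Kept cells (2117, 3821 and 8111) had 500 or more detected genes and no more than 10% of UMIs from mitochondrial genes. A cell joined a gate by its number of detected markers (2 of 6 for palatal mesenchyme, 4 of 7 perimysial, 2 of 9 osteogenic, 2 of 5 tendon, 2 of 3 midline, 3 of 6 glial, 5 of 6 erythroid with 10% globin, 4 for other types). Cells that passed several of the gates outside the mesenchyme were left out. So were cells of other types, except chondrocyte and mural, with at least 3 mesenchymal markers, and cells both perimysial and osteogenic. Other overlaps inside the mesenchyme were settled by precedence, with perimysial and osteogenic before tendon, and tendon before midline. The gate rule was set after marker detection had been seen and before collagen counts were, and 3 versions of its conflict rule were tried on cell numbers and marker sums only. Scrublet served only in an alternative, leaving out the highest scores at 0.8% per 1000 barcodes (63, 132 and 604).

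Deposited counts were summed per gate and library and given as CPM with exact Poisson intervals, shares with Clopper-Pearson intervals, both at 95% and covering counting error only. For shares of cells in which a chain was detected, cells were brought to a common depth of 3500 UMIs by random draws, leaving out shallower ones (1258, 1706 and 3133 mesenchymal cells stayed). Where a count was 0, 3 UMIs took its place on log scales. With 1 mutant library no test was run. Median depth was 6986, 5143 and 5039 UMIs per barcode, so rare chains carry wide intervals. Depth within gates differed from this order. Median UMIs per cell were 8127.5, 5492 and 6045 in the palatal mesenchyme, highest in control 1. They were 9834, 9526.5 and 13770 in the perimysial gate and 8600, 8176.5 and 10268.5 in the tendon gate, both highest in the mutant. Names and positions follow GENCODE vM21 (42 of 42 chains matched) and RefSeq windows on GRCm38.p6.

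Members, lists and gates were chosen with earlier results of these data known. Chains were named where they were called in the mesenchyme, perimysial or osteogenic gate, ranked among the 3 highest in a gate, or partner another chain. Chains named for other gates, the sequences, the 4 motifs and the ratios followed through the alternatives were chosen after their values were seen. Alternatives were each control left out, 200 genes with no mitochondrial limit, Scrublet, a stricter gate, TMM factors, collagen outside the denominator, means over cells, thinned cells, no CPM minimum and equal weights of the mesenchymal divisions. Leaving out barcodes found in 2 libraries, leaving out cells with 2 or more chondrocyte markers, and a CPM minimum on the mean of the 3 libraries (for counts of chains) were added after seeing the data. Python 3.11.15, numpy 2.4.6, scipy 1.17.1, pandas 2.3.3, scanpy 1.11.5, R 4.3.3 and edgeR 4.0.16 were used, and the scripts were tested on simulated data.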

Additional observations from a re-analysis of the deposited data

How the results depend on the processing

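Of 547 values computed for 45 named genes by gate, 542 kept their sign and 5 did not, and 481 kept the call. In the palatal mesenchyme the count of higher chains (4) ran from 4 to 8 with a control left out, and was 2 for means over cells, 1 with the divisions at equal weights and 2 with the CPM minimum on the mean of the 3 libraries. The lower count (1) ran from 1 to 2, and was 3 without a CPM minimum. In the perimysial gate the higher count (3) ran from 3 to 8 with a control left out, and was 6 without the highest Scrublet scores, 7 with a stricter gate, 6 with TMM factors and 5 without a CPM minimum, and the lower count (0) ran from 0 to 2, and was 1 with a stricter gate. In the osteogenic gate the higher count (5) ran from 4 to 13 and was 8 with a stricter gate and 3 with the CPM minimum on the mean, and the lower count (1) ran from 1 to 7. The log2 difference of the collagen share (0.08) ran from 0.0053 to 0.16 with a control left out, was 0.21 with TMM factors and turned to -0.016 for means over cells and -0.0011 for thinned cells, so no direction is read from it. With a stricter gate the sign turned for *Loxl3* in the perimysial gate (0.036), *Ddr1* in the osteogenic gate (0.30) and *Col5a2* in myogenic cells (0.032). With thinned cells it turned for *Col14a1* in the osteogenic gate (-0.59), *Col2a1* in epithelial cells (-0.33) and *Col4a1* per *Col4a2* in the osteogenic gate (1.01). With a control left out, *Col1a1* per *Col1a2* in the osteogenic gate ran from -0.47 to 0.10, turning without control 1. The causes were not tested. No paired analysis was possible because the mutant has 1 library, so the groups share 1 replicate number, and no result comes from a test. The number of cells limits the osteogenic gate of control 2 (32 cells) and the endothelial gate of control 1 (15 cells).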

Other observations

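The glial gate, marked by genes of the cells that ensheath nerves, held 10, 26 and 117 cells in control 1, control 2 and the mutant, and some collagens seen little in the mesenchyme. *Col20a1*, a FACIT chain, stood at 126, 92.6 and 16.8 CPM, on 14, 13 and 7 UMIs. *Col28a1*, a collagen of peripheral nerve, was at 0, 0 and 16.8 CPM, and *Col22a1* at 0, 0 and 43.1 CPM. *Col14a1* stood at 90.0, 28.5 and 134 CPM, on 10, 4 and 56 UMIs. The 6 glial markers summed to 1746, 2722 and 4310 CPM in the gate. The few control cells allow no comparison between the genotypes for any of these 4 chains.

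Mural cells, which wrap vessels, held *Col4a1* at 277, 311 and 165 CPM and *Col4a2* at 290, 311 and 219 CPM, on 11, 3 and 37 cells. The 8 mural markers summed to 1541, 2263 and 1072 CPM, in the order of the *Col4a1* values, which rest on 43, 7 and 67 UMIs. Too few control cells were held for a comparison.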
